A study of Mus musculus with 4 samples.

Results

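Atp6ap2 and Atp6ap1 encode the accessory subunits of the vacuolar proton pump, and both were chosen by name as every record of the deposited table with those gene symbols. Each symbol had 1 RefSeq record, so that the description rests on 2 genes of 23466 in the table. RNA was measured in frozen hippocampus at postnatal day 30 in 4 libraries. Mutants 38 and 39 carried a conditional Atp6ap2 allele and a Camk2a-Cre transgene, written Atp6ap2Camk2aCre/0 in their labels, and wild-types 11 and 73 were the controls. All were on the C57BL/6N strain. The mutants' titles read ko, while their condition field also holds the words conditional het. The Camk2a promoter drives Cre in forebrain excitatory neurons, so interneurons, glia, vessels and choroid plexus of the same tissue are not its target. In which cells the gene was deleted was not measured here. The labels do not say which part of Atp6ap2 is deleted, nor whether each sample is a single animal. The comparison asks what the targeting of Atp6ap2 in these neurons does to hippocampal RNA, in a study whose title links the gene to intellectual disability and parkinsonism.

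The vacuolar proton pump acidifies lysosomes, endosomes and synaptic vesicles. Its V1 sector sits in the cytosol and splits ATP, and its V0 sector carries protons through the membrane. Atp6ap1, also named Ac45, is a glycoprotein of the V0 sector that takes part in assembling the pump and is known from neurons and neuroendocrine cells. Atp6ap2 is best known as the prorenin receptor, a membrane protein that furin can cleave, that binds the Wnt co-receptor complex and that is also part of the assembled pump in brain. Both genes lie on the X chromosome.

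Transcripts of the Y-linked gene Ddx3y were read in every library at 1089 to 1246 scaled read equivalents, and Xist at 13.6 to 46.2. Y-linked RNA marks male tissue, in which X-linked genes have a single copy. A scaled read equivalent is the deposited value divided by 42, the number of bases that 1 read contributed. Before the authors' scaling, wild-type 73 was the shallowest library with 10023033 read equivalents, and wild-type 11 the deepest with 18339838. The excitatory neuron gene Camk2a had 24467 to 27998 scaled read equivalents, and all 12 excitatory neuron markers looked up were read in every library, as the tissue label states. Choroid plexus RNA differed between libraries. Its 17 markers, none of them at 0, summed to 83505 and 2926 in mutants 38 and 39, against 49889 and 3795 in wild-types 11 and 73. Each group thus held 1 library high and 1 low in these markers. In bulk tissue, fewer cells of a type and less RNA per cell cannot be told apart.

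The 250 bases before the annotated start site of each gene are shown, though where the measured transcripts start was not checked. The bases were taken from RefSeq sequence of build GRCm38.p6, which is not the mm9 build of the authors. Both windows lie on the plus strand, at chrX:12587509-12587758 for Atp6ap2 and chrX:74296847-74297096 for Atp6ap1. Capitals mark, on either strand, the CCAAT box, the GC box with its letters GGGCGG and the core of a cAMP response element with its letters TGACG. In the Atp6ap2 window a GC box and a CCAAT box share letters, as 1 run of capitals.
Atp6ap2: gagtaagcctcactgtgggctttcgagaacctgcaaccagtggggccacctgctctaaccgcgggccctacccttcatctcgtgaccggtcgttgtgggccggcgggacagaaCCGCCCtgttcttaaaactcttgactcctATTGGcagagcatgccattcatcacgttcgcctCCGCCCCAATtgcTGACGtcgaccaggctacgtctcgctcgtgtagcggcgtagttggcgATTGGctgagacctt
Atp6ap1: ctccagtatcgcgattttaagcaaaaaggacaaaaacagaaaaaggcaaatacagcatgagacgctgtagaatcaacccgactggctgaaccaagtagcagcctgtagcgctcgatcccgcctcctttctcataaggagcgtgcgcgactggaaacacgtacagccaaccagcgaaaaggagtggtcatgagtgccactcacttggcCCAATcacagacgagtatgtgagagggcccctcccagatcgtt
The Atp6ap2 window held 3 CCAAT boxes, 2 GC boxes and 1 core of a cAMP response element. The Atp6ap1 window held 1 CCAAT box, 43 bases before the start, with none of the other motifs. Over 32851 promoters of the same length, a CCAAT box was found in 33.8%, a GC box in 32.7% and the core element in 17.8%. Neither window held the E-box letters CACGTG, found in 6.02% of promoters. The TATA box, with the letters TATAAA, was found in 12.4% of promoters and in neither window. The whole cAMP response element, with the letters TGACGTCA, was found in 1.55% and likewise in neither. Of 22 promoters of 17 V0 and V1 genes, a GC box was found in 14, the core element in 6, a CCAAT box in 5, the E-box letters in 2 and a TATA box in 1. GC content was 59.2% before Atp6ap2 and 51.6% before Atp6ap1, against a median of 52.4%. No deposited value measures either promoter, so these letters describe the genes and not the comparison.

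No fall of Atp6ap2 RNA was detectable in the mutants. The gene had 2551 and 2522 scaled read equivalents in mutants 38 and 39, against 2312 and 2637 in wild-types 11 and 73. Both mutants lay between the wild-types, so the groups overlapped fully. The mutants differed from each other by 1.14% and the wild-types by 14.0%. The means were 2536 ± 20.4 in mutants and 2475 ± 229 in wild-types (SD, n = 2 each). Before scaling these values rested on 3022 and 2793 read equivalents in the mutants, against 2768 and 1689 in the wild-types. Counting alone gives an error of 1.82% to 2.43% of the value at such numbers.

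The log2 fold change of Atp6ap2 was 0.04 ± 0.10 (SE, n = 2 per group; limma adjusted p = 0.991, Benjamini-Hochberg over 18127 genes), on log2(read equivalents + 1). Its 95% interval ran from a level 13.4% lower to one 21.8% higher in mutants. In the authors' deposited table the p-value of Atp6ap2 was 0.800. A fall of 15.7% would have been needed for an unadjusted p below 0.05 at this standard error. Of the genes tested, 84.3% had a larger absolute fold change than Atp6ap2. Its standard error was close to the median of 0.11 for the 976 genes of similar level. Without wild-type 11 the fold change was -0.06, and without wild-type 73 it was 0.13, so the direction rested on wild-type 11.

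**Figure D1:**
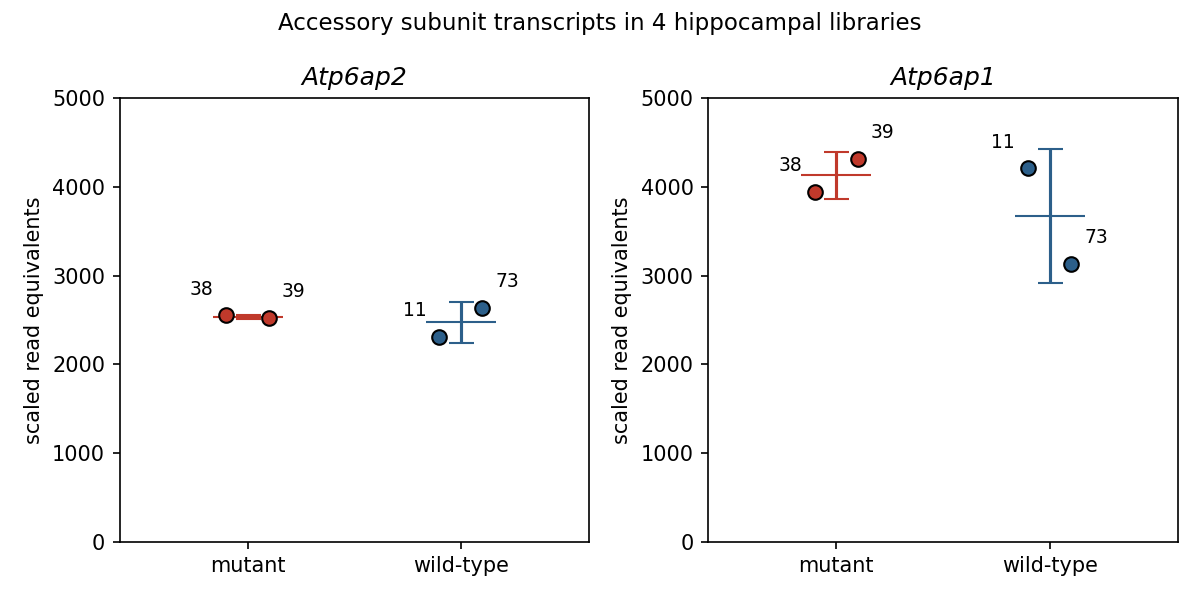
Scaled read equivalents of Atp6ap2 and Atp6ap1 (vertical axes, from 0) in mutant and wild-type libraries, 1 point per library with its number; horizontal bars are group means and error bars are SD, n = 2 each. Mutants 38 and 39 sit between the wild-types for Atp6ap2, and wild-type 73 sits below the other libraries for Atp6ap1, at 3134.

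The summed value covers the whole transcript and is a weak check of the labels. The matching transcript of Atp6ap2 in GENCODE M21, an annotation of GRCm38, has 9 exons and 2324 nt, of which 1050 are coding. The last exon alone, with most of it non-coding, is 1368 nt or 58.9% of the length. The 7 internal exons are 54 to 150 nt long, which is 2.32% to 6.45% of the transcript each and 35.3% together. If a single internal exon were missing from every transcript, and transcript number stayed the same, at most 6.45% of the bases would be lost. That is less than the 13.4% at the lower bound of the interval. Whether a single exon is missing, and whether transcript number would stay the same, was not tested. The deposited values are not split by exon, so the loss of a part of Atp6ap2 could not be measured. Reads of cells without Cre enter the same sum.

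**Figure D2:**
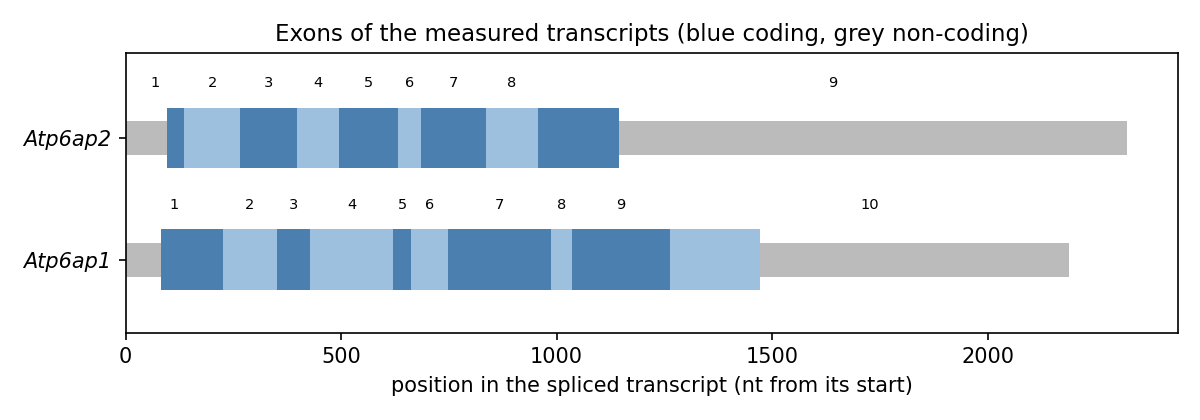
Exons of the Atp6ap2 and Atp6ap1 transcripts, drawn to scale along the spliced RNA (horizontal axis, nt from the start), with exon numbers above; blue shades are coding and alternate between exons, and grey is non-coding. The last exon takes 1368 of 2324 nt in Atp6ap2 and 925 of 2189 nt in Atp6ap1.

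Atp6ap1, the partner that is not targeted, averaged higher in the mutants by less than the wild-types differed. It had 3944 and 4316 scaled read equivalents in mutants 38 and 39, against 4207 and 3134 in wild-types 11 and 73. Mutant 38 lay below wild-type 11, so the groups overlapped, and wild-type 73 was the low library. The mutants differed by 9.44% and the wild-types by 34.2%. The means were 4130 ± 263 in mutants and 3670 ± 758 in wild-types (SD, n = 2 each). These values rested on 4672 and 4780 unscaled read equivalents in the mutants, against 5036 and 2007 in the wild-types, with counting errors of 1.41% to 2.23%.

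The log2 fold change of Atp6ap1 was 0.18 ± 0.15 (limma adjusted p = 0.989; SE, n = 2 per group). The 95% interval ran from a level 11.2% lower to one 45.3% higher in mutants. In the authors' deposited table the p-value of Atp6ap1 was 0.291. A larger absolute fold change was seen in 40.3% of genes. The value turned on wild-type 73. Without that library the fold change was -0.03, and without wild-type 11 it was 0.40, with an unadjusted p of 0.0132 and an adjusted p of 0.352 in limma. Within the pair of libraries low in choroid plexus markers it was 0.46, and within the pair high in them -0.09. For Atp6ap2 these within-pair values were -0.06 and 0.14.

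Neither member passed, and 0 of 2 had an unadjusted p below 0.05, against 3.94% of all genes tested, 2.18% in the higher and 1.75% in the lower direction. Adjusted over all genes, 0.00552% passed, which is 1 gene. With wild-type 11 left out that number was 37, and with mutant 38 or mutant 39 left out it was 8 or 7; neither member was among them. The mutants lay beyond both wild-types in 33.3% of genes and for neither member.

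The 2 members did not follow each other over the 4 libraries. From low to high, Atp6ap2 ran wild-type 11, mutant 39, mutant 38, wild-type 73, while Atp6ap1 ran wild-type 73, mutant 38, wild-type 11, mutant 39. Wild-type 73 was thus the highest library for Atp6ap2 and the lowest for Atp6ap1. It was also the shallowest library, and the lowest in oligodendrocyte markers. These 7 markers, none at 0, summed to 103740 and 91894 in the mutants, against 84220 and 61021 in wild-types 11 and 73, and 7 of 7 were higher in both mutants, as 16.8% of all genes were. Some markers of other cells also separated the groups, though none passed the test. The 6 thalamus markers together summed to 4168 and 1837 in mutants 38 and 39, against 1695 and 1753 in wild-types 11 and 73, and 2 of them were higher in both mutants. Of these Slc17a6, a vesicular glutamate transporter, had 954 and 783 in mutants, against 380 and 408 in wild-types. The log2 fold change was positive for 5 of the 6. Prkcd was high in mutant 38 only, at 1841, against 465 in mutant 39 and 499 and 405 in wild-types 11 and 73. Calb2 went the other way, with 533 and 140 in mutants, against 422 and 555 in wild-types. Of 12 excitatory neuron markers 3 were lower in both mutants, as 16.5% of all genes were. Among them was Fibcd1 with 1392 and 1600 in mutants, against 2243 and 2299 in wild-types. The log2 fold change was positive for 7 of the 12 markers, with a median of 0.01. Of 6 vascular and meningeal markers 2 were higher and 1 was lower in both mutants. The lower one, Dcn, had 473 and 259 in mutants, against 801 and 1060 in wild-types. The part of depth or of these cells' RNA in the values of the members was not tested. The 4 values of Atp6ap1 spanned 0.46 on the log2 scale, more than 79.1% of the 11674 genes with a mean of at least 100 read equivalents. Atp6ap2 spanned 0.19, and 24.3% of these genes spanned less. Wild-type 73 was the lowest library in 29.7% of them, and stood below the next library by at least as much as for Atp6ap1, 0.33, in 3.47%.

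Within a library a scaling factor cancels, so the members were also set against each other. Per base of transcript, Atp6ap1 RNA exceeded Atp6ap2 RNA 1.64-fold and 1.82-fold in mutants 38 and 39, against 1.93-fold and 1.26-fold in wild-types 11 and 73. Both mutant ratios lay between those of the wild-types. In scaled read equivalents on the log2 scale, the difference of Atp6ap1 minus Atp6ap2 was 0.70 ± 0.10 in mutants and 0.56 ± 0.43 in wild-types (SD, n = 2 each; exact two-sided permutation p = 1). The smallest p that 2 against 2 libraries allow is 0.333. Against the median of the V0 and V1 subunits in the same library, Atp6ap2 stood at 0.22 ± 0.14 in mutants and 0.31 ± 0.11 in wild-types (exact permutation p = 0.667). Atp6ap1 stood at 0.92 ± 0.04 in mutants and 0.87 ± 0.33 in wild-types (SD, n = 2 each; exact permutation p = 1).

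Both accessory subunits were among the abundant transcripts of the tissue. Levels were set per base with the lengths of the matching GENCODE M21 transcripts, which 97.5% of tested genes had. The scaled depth per base of Atp6ap2 was 45.8 ± 0.368 in mutants and 44.7 ± 4.15 in wild-types (SD, n = 2 each), above 95.5% of 17679 genes. That of Atp6ap1 was 79.2 ± 5.05 in mutants and 70.4 ± 14.6 in wild-types (SD, n = 2 each), above 97.9% of these genes, whose median was 4.03. Atp6ap1 was higher than Atp6ap2 per base in each of the 4 libraries.

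Among 22 pump genes with a length, Atp6ap1 ranked 7 and Atp6ap2 ranked 13 by mean depth per base. The highest was Atp6v1e1, a stalk subunit of V1, with a mean of 136 over the 4 libraries. It was followed by Atp6v1g2, the brain form of another stalk subunit, with 116, and Atp6v1b2, the brain form of the ATP-binding B subunit, with 106. Just above Atp6ap1 came Atp6v0b, a subunit of the proton ring, with 78.4 to 96.1, and just below it Atp6v1c1, with 66.3 to 75.7, and both ranges overlapped the 60.1 to 82.8 of Atp6ap1. Atp6ap1 ranked 7 in mutant 38, mutant 39 and wild-type 11 and 10 in wild-type 73, and Atp6v0b ranked 6 in each library. Around Atp6ap2, whose depth was 41.8 to 47.7, lay Atp6v1h with 44.6 to 48.4, the large neuronal V0 subunit Atp6v0a1 with 41.5 to 65.7 and the ring subunit Atp6v0c with 28.1 to 47.3. The ranges of these neighbours overlapped that of Atp6ap2. Within each of the 4 libraries Atp6ap2 lay above Atp6v0c, most narrowly in wild-type 73, at 47.7 against 47.3. The depths were not corrected for sequence shared with other genes, of which Atp6v0c had more than Atp6ap2. The order of Atp6ap2 with Atp6v1h and with Atp6v0a1 changed between libraries. At the low end were the forms known from kidney and other acid-secreting cells, Atp6v1c2 with a mean of 0.607, Atp6v0a4 with 0.377 and Atp6v1b1 with 0.0988.

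The genes differed in how much sequence they share with others. None of the 42-base windows of Atp6ap1 occurred in a transcript of another gene in GENCODE M21, and 4.69% of those of Atp6ap2 did, in 1 other gene. The share was 33.6% for Atp6v0c, 22.8% for Atp6v1f and 21.2% for Atp6v1g1. For Gapdh, listed at only 16.0 to 23.5 scaled read equivalents, it was 83.2%. The labels do not say how reads with several matches were placed, and whether shared sequence lowers a level was not tested. No annotated gene overlaps either member.

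**Figure D3:**
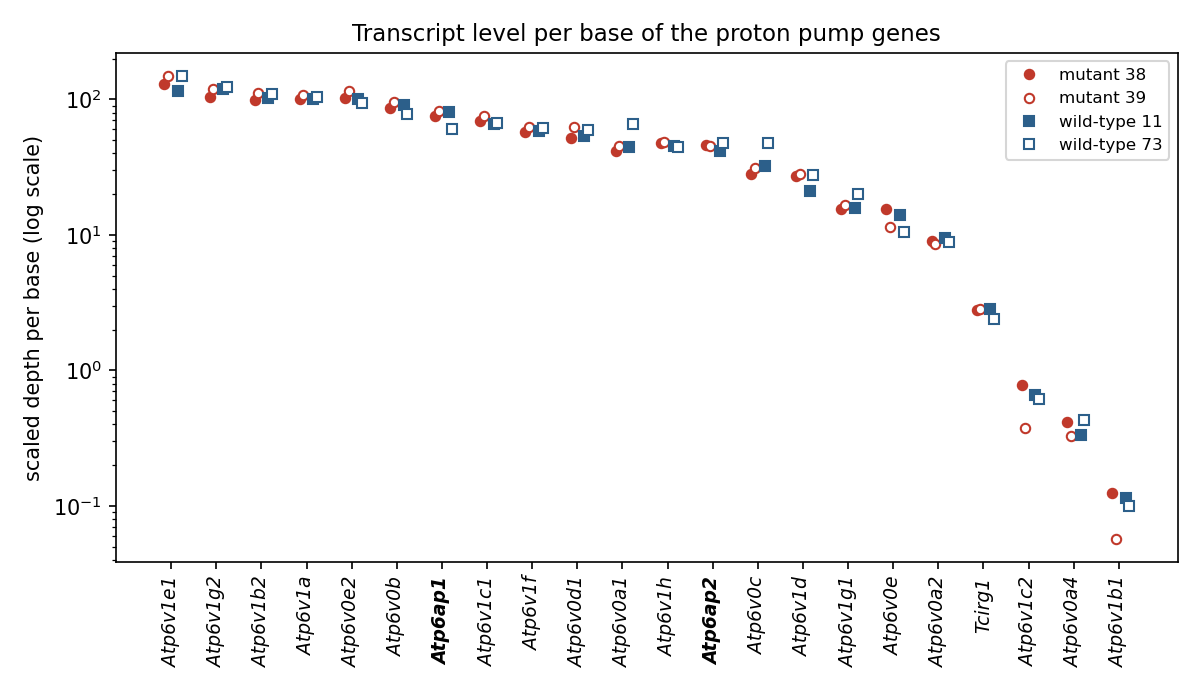
Scaled depth per base (vertical log axis) of 22 proton pump genes in order of their mean, with 1 symbol per library (red circles mutants 38 and 39, blue squares wild-types 11 and 73). Atp6ap1 lies between Atp6v0b and Atp6v1c1, and Atp6ap2 between Atp6v1h and Atp6v0c.

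No core subunit of the pump passed the test. Of 23 V0 and V1 genes, 20 passed the filter on low values, 0 passed the test and 0 had an unadjusted p below 0.05 (limma). Their median log2 fold change was 0.01, equal to the 0.01 of all genes tested. Among V0 genes, Atp6v0c had 792 and 875 scaled read equivalents in mutants 38 and 39, against 912 and 1332 in wild-types 11 and 73, a log2 fold change of -0.40 ± 0.18. Atp6v0a1 had 3959 and 4312 in mutants, against 4218 and 6268 in wild-types (-0.32 ± 0.18). In both, wild-type 73 was the high library. Atp6v0e2 had a log2 fold change of 0.15 ± 0.10 and Atp6v0b one of 0.11 ± 0.12. Among V1 genes the smallest p-values belonged to Atp6v1d (0.20 ± 0.14), Atp6v1c1 (0.12 ± 0.10), Atp6v1g2 (-0.12 ± 0.11) and the regulatory subunit gene Atp6v1h (0.10 ± 0.09; SE, n = 2 per group). Both mutants lay above both wild-types in 3 of the 20 genes and below in 2, against 16.8% and 16.5% of all genes. The fold changes of both members lay within the range of these subunits, -0.40 to 0.20.

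**Figure D4:**
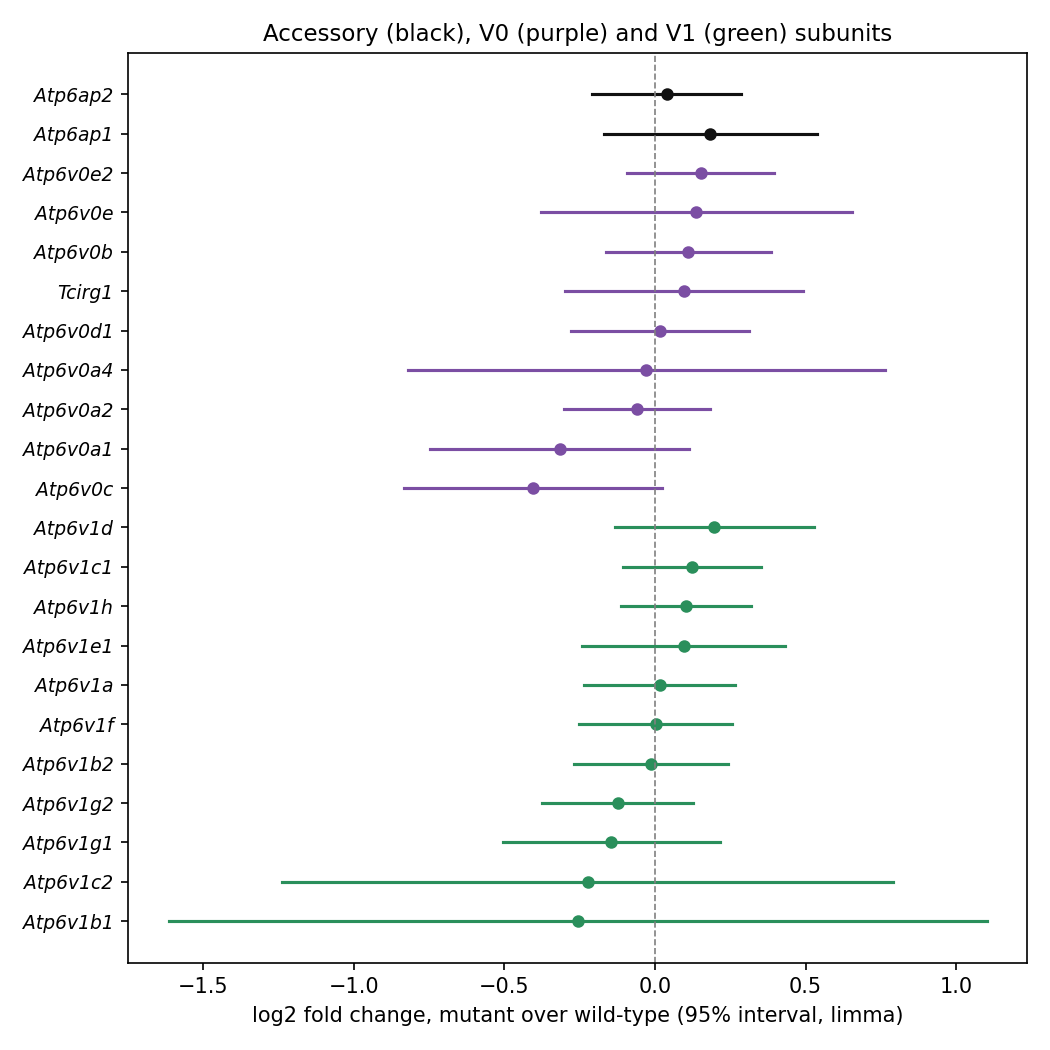
Log2 fold change of mutant over wild-type (horizontal axis) with its 95% limma interval for the accessory subunits (black), 9 V0 genes (purple) and 11 V1 genes (green). Every interval drawn includes 0, among them 0.04 for Atp6ap2 and 0.18 for Atp6ap1.

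Genes for assembly and control of the pump gave no passing gene either. Of 14 looked up, 13 were tested, 0 passed and 0 had an unadjusted p below 0.05 (limma), with a median log2 fold change of -0.01. Ccdc115, an assembly factor of the endoplasmic reticulum, had 223 and 249 in mutants 38 and 39, against 250 and 290 in wild-types 11 and 73 (-0.19 ± 0.16). Its partner Tmem199 had -0.13 ± 0.15, and Tmem9b, a relative of the pump regulator Tmem9, had 0.12 ± 0.13. Atp6ap1l, named for its likeness to Atp6ap1, was scarcely read, at 23.4 and 22.1 in mutants, against 16.9 and 18.4 in wild-types (0.35 ± 0.35; SE, n = 2 per group).

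Partners of Atp6ap2 outside the pump were looked up as well. Of 10 renin-angiotensin genes 9 were tested and 0 passed. Ren1, which encodes renin, had 5.81 in mutant 38 and 3.28 in wild-type 11 and was listed at 0 in mutant 39 and wild-type 73. The receptor gene Mas1 was the only member with an unadjusted p below 0.05, at 387 and 445 in mutants, against 527 and 558 in wild-types (-0.38 ± 0.13; limma adjusted p = 0.989). Agtr2 had -0.63 ± 0.57 and Anpep -0.27 ± 0.33, both with few reads. Of 18 genes of the Wnt receptor complex and of planar cell polarity, all tested, 0 passed and 0 had an unadjusted p below 0.05 (limma), with a median of 0.03. The smallest p-values were those of Celsr3 (-0.16 ± 0.09), Vangl2 (0.25 ± 0.18), the frizzled receptor gene Fzd8 (-0.22 ± 0.18) and Fzd5 (0.49 ± 0.42; SE, n = 2 per group). Of 6 genes of proteases that can cut the members, 0 passed and 0 had an unadjusted p below 0.05 (limma). The log2 fold change was 0.16 ± 0.16 for Pcsk6, -0.09 ± 0.13 for Furin, -0.09 ± 0.14 for Pcsk7 and -0.02 ± 0.10 for Mbtps1 (SE, n = 2 per group). Furin had 588 and 488 in mutants, against 552 and 592 in wild-types.

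Regulators of lysosomal genes and of lysosomal mTORC1 signalling were looked up next. Of 14, 13 were tested, 0 passed and 0 had an unadjusted p below 0.05 (limma), with a median log2 fold change of 0.06. Tfeb, a transcription factor of lysosomal and pump genes, had 183 and 168 in mutants, against 154.9 and 155.2 in wild-types (0.18 ± 0.17). Its relative Mitf had 0.36 ± 0.26, and the Rag GTPase genes Rragd and Rragc had 0.21 ± 0.14 and 0.20 ± 0.16 (SE, n = 2 per group).

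On the X chromosome, genes around both members were also compared. Around Atp6ap2, 6 of 8 genes looked up were tested and 0 passed, with a median log2 fold change of 0.09. Cask, a synaptic scaffold gene, had 2067 and 2085 in mutants 38 and 39, against 1789 and 1848 in wild-types 11 and 73 (0.19 ± 0.09; SE, n = 2 per group). Usp9x had 0.13 ± 0.10, Bcor 0.11 ± 0.12 and Nyx -0.30 ± 0.30. Around Atp6ap1, all 15 were tested and 0 passed, with a median of 0.02. Rpl10, a ribosomal protein gene with at most 21.5 scaled read equivalents, had -0.67 ± 0.40 (SE, n = 2 per group). Whether Rpl10 shares sequence with other genes was not looked up. The plexin gene Plxna3 had -0.18 ± 0.12 and Fam50a had -0.25 ± 0.23 (SE, n = 2 per group). Flna, which encodes filamin, had 0.32 ± 0.20. It had its lowest value in wild-type 73, as Atp6ap1 did, at 1854, against 2519 to 3142 in the other libraries.

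The genes whose pattern over the 4 libraries was most like each member's were found by the distance between log2 values centred on the gene's mean, among 11674 genes. Nearest to Atp6ap2 were Fam20b (distance 0.00767), Ppp1cb, Epc2, Cbr4 and Kcnk3 (0.0128), against a median distance of 0.254. Ppp1cb, a catalytic subunit of a protein phosphatase, had 4664 and 4583 in mutants 38 and 39, against 4188 and 4787 in wild-types 11 and 73. Nearest to Atp6ap1 were Ranbp17 (0.0209), Cntd1, Frmd8, Map6d1 and Rab5b (0.0388), against a median of 0.433. Rab5b, a GTPase of early endosomes, had 1003 and 1099 in mutants, against 1097 and 821 in wild-types. The members stood 0.469 apart from each other. Atp6ap1 came 10217th among the genes ordered by likeness to Atp6ap2, and Atp6ap2 came 6851st among those ordered by likeness to Atp6ap1. With 4 libraries and so many genes, a small distance is a description of these libraries.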

How the data were processed

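The authors deposited 1 table of 31315 transcript records, with a signal for each library and a p-value for each record. The tools GSNAP and DESeq2 and the build mm9 are named, per the submitters' processing notes, without versions or roles, and the counter and its strand setting are not stated. In every library, 100% of the values under 20000 steps were whole multiples of a library's own step (tolerance 0.05 steps), and the commonest nonzero value was 42 steps. The signal the authors deposited is therefore aligned bases over a transcript divided by a factor per library, without a length correction. The authors' deposited p-value carries the name DESeq in the header, with no word on an adjustment.

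Values were divided by 42. A gene was represented by its record with the highest mean. The test was limma 3.58.1 (R 4.3.3), two-sided, on log2(read equivalents + 1) of genes reaching 1 read equivalent in at least 2 libraries. It used a variance trend, group as the only term and Benjamini-Hochberg adjustment at 0.05. The edgeR test planned in case of counts was not run. Python 3.11.15 and matplotlib 3.10.9 did the rest. The fit was also run on simulated data, in which the changed genes had larger changes than the members. That run tests no result given here. Nothing in the labels says that the samples are separate animals. The p-values therefore reflect only how these samples vary, which may be technical. The members, lists and tests were chosen with earlier results of these data known. Named are the members, up to 4 genes per list with the smallest p-values, the 5 nearest patterns per member, and others for their place beside a member. Gapdh and the genes placed by depth were chosen after their values were seen. Some genes that the rule names are not reported here.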

Additional observations from a re-analysis of the deposited data

How the results depend on the processing

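No paired analysis was possible because the groups share no replicate number. Over the alternatives with a test (pseudocounts of 0.5 and 8, other filters, values in bases, 3 scalings, other records, other variance priors, a choroid plexus covariate and 1 library left out), neither member passed. The adjusted p lay between 0.886 and 1.00 for Atp6ap2 and between 0.352 and 1.00 for Atp6ap1. Without 1 library the log2 fold change ran from -0.056 to 0.13 for Atp6ap2, reversed without wild-type 11 (-0.056), and from -0.028 to 0.40 for Atp6ap1, reversed without wild-type 73 (-0.028). Within the pairs high and low in choroid plexus markers it was 0.14 and -0.064 for Atp6ap2 and -0.093 and 0.46 for Atp6ap1. The differences within a library ran from -0.16 to 0.45 (Atp6ap1 minus Atp6ap2), from -0.20 to 0.01 (Atp6ap2 minus the pump median) and from -0.18 to 0.28 (Atp6ap1 minus the pump median) without 1 library. The number of genes that passed was 1, and 12 with a robust prior, 0 without a variance trend, 80 with the choroid plexus covariate, 45 from the authors' deposited p-values after adjustment, and 1 to 37 without 1 library. The cause was not tested. No scaling moved the median fold change of all genes by over 0.1. With 2 libraries per group the spread is estimated from few values, and counting error at the members' depth was 1.41% to 2.43%.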
